A study of Mus musculus with 15 samples.

Results

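The SLC25 genes encode the mitochondrial carriers, a family of membrane proteins that move metabolites, nucleotides, cofactors and ions across the inner mitochondrial membrane. Their expression was read in cells of the mouse fetal liver, the organ in which the embryo makes its red cells. Every gene whose symbol begins with Slc25a was taken from the probe sets that carry a single gene symbol, and the probe set with the highest mean stood for a gene with several. This gave 46 carrier genes, read from 50 probe sets, among 19938 genes in all.

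The embryos were of strain FVB/NJ at embryonic day E14.5. They were wild type (WT) or labelled as Klf3 knockout (KO), Klf3 being a transcription repressor of the Krüppel-like family. The labels do not say how Klf3 was disrupted. Cells were separated with magnetic beads against TER119, an antigen of maturing red cell precursors, by positive selection (TER119+) or depletion (TER119-). The 4 groups were WT TER119+ (4 arrays), KO TER119+ (3 arrays), WT TER119- (4 arrays) and KO TER119- (4 arrays), on Affymetrix MoGene 1.0 ST arrays. Separate embryos are not named for the replicates in the labels, so the spread that p-values rest on may be in part technical. By sex-linked genes, WT TER119+ held 2 male and 2 female arrays, KO TER119+ 1 and 2, and KO TER119- 1 and 3. The arrays of these groups are thus not all repeats of 1 embryo. All values below are log2 expression values, a difference of 1 being a doubling, and levels are given as mean ± SD. Fewer cells of a type and less RNA per cell cannot be told apart in such bulk samples.

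The probe set for Klf3 did not separate the genotypes. It read 9.94 to 10.50 in WT and 10.34 to 10.55 in KO-labelled TER119+ arrays, and 7.94 to 8.80 against 8.02 to 8.74 in TER119- arrays (limma adjusted p = 0.9998 and 0.947). The KO arrays are therefore called KO-labelled throughout. Other genes did differ between the genotypes. In limma, 203 genes passed an adjusted p of 0.05 in TER119+ and 17 in TER119- arrays, with lowest values of 1.66e-11 and 2.40e-06. The 7 measured erythroid markers averaged 11.70 ± 0.06 in WT TER119+ and 7.97 ± 0.30 in WT TER119- arrays, and 11.66 ± 0.03 and 8.34 ± 0.30 in the KO-labelled ones. TER119+ arrays also read high for other cells. The mean of 19 hepatocyte markers lay at 10.97 to 11.75 over the 7 TER119+ arrays and at 5.61 to 8.03 over the 8 TER119- arrays, and 9 macrophage markers averaged 8.25 ± 0.15 and 5.31 ± 0.07 in WT TER119+ and WT TER119- arrays. The 8 neutrophil markers stood the other way, at 5.47 ± 0.25 and 10.76 ± 0.16. Among the hepatocyte markers, Alb (albumin) averaged 13.61 and Afp (alpha-fetoprotein) 12.90 in WT TER119+ arrays, against 10.31 and 9.34 in WT TER119- arrays. WT TER119- replicates 2 and 4 and KO TER119- replicate 4 stood apart in earlier results of these data. Without them, 28 carriers differed between populations in WT (50.1% of all genes did) and 30 in KO-labelled cells (52.9%). With them, 27 carriers differed in each (52.6% and 49% of all genes). The part of these other cells in the carrier differences between populations was not tested.

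Red cell precursors use carriers of this family to make haem. Mitoferrin 1 (Slc25a37) brings iron into the mitochondrion, and Slc25a38 brings in glycine, which mitochondrial aminolevulinate synthase joins to succinyl-CoA in the first step of haem synthesis. Ferrochelatase inserts the iron in the last step, also inside the mitochondrion. Other carriers exchange ATP for ADP, import phosphate, or shuttle the acids and amino acids that link mitochondrial and cytosolic metabolism.

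Promoter windows are shown for the glycine carrier and a glutathione carrier, which stood high in TER119+ cells, and for mitoferrin 2, which did not. Each holds the 250 bases before the gene's start (RefSeq, assembly GRCm38.p6), written 5′ to 3′ along the gene's strand. The windows are chr9:120110132-120110381 on the plus strand (Slc25a38), chr11:102407518-102407767 on the minus strand (Slc25a39) and chr19:43674882-43675131 on the minus strand (Slc25a28). The letters CACCC, the core of the element that Krüppel-like factors bind, and their reverse complement GGGTG are in capitals.
Slc25a38: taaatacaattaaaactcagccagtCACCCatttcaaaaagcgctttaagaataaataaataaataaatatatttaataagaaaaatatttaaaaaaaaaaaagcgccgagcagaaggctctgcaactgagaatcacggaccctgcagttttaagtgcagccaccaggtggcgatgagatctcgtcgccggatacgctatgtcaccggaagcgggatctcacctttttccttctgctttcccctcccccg
Slc25a39: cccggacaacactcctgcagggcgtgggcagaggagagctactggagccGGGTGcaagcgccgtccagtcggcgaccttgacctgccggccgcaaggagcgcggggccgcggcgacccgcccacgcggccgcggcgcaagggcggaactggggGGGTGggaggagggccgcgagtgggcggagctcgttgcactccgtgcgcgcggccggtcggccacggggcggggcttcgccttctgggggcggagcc
Slc25a28: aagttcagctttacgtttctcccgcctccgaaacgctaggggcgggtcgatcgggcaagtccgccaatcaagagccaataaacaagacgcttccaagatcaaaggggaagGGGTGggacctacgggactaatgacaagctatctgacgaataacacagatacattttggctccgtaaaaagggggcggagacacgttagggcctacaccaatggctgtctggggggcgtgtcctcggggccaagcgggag
Slc25a39 had 2 such matches, and Slc25a38 and Slc25a28 had 1 each. None of the 3 windows held GATAA, letters of the GATA-factor motif, or its reverse complement TTATC. RefSeq windows were matched for 36 of the 46 carriers. These 36 carriers have 46 windows, since some have more than 1. CACCC on either strand lay in 58.7% of the 46 carrier windows and 52% of all 32851 windows, and GATAA in 15.2% and 22.6%. Counted by gene, CACCC lay in a window of 66.7% of the 36 carriers and 54.5% of 27025 genes, and GATAA in 19.4% and 25.5%. These matches are letters in a window, and binding was not measured.

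Between the populations, 27 of the 46 carriers differed in WT cells at an adjusted p under 0.05 (58.7%), against 52.6% of all genes tested. The calls were 17 higher in TER119+ cells, where 23.5% of all genes were, and 10 lower, where 29.1% were. The groups of arrays did not overlap for 25 carriers, against 45.6% of all genes. The median difference was 0.09 over the carriers and -0.09 over all genes. Centring each array on the median of its brighter genes moved both alike, to -0.01 and -0.18. Such centring shifts all genes of an array equally, so it could not change the gap of 0.18 between these medians. With quantile normalization the gap was 0.14 in WT. In KO-labelled cells the gap was 0.06 in the main analysis and 0.11 with quantile normalization. Of the 16 carriers with a mean level of at least 8, 6 were higher and 6 lower, where 77% of genes that bright were called (34% higher and 42.9% lower). The share called in either direction is thus near that of the transcriptome, while 37% of carriers were called higher, against 23.5% of all genes. The largest differences, 4.02 to 4.17, were those of Slc25a37, Slc25a38 and Slc25a39. Over all genes the WT difference ran from -6.76 to 6.22. Its median was 3.72 over the erythroid markers and 4.32 over the hepatocyte markers. The share of all genes with differences this large was not counted.

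**Figure D1:**
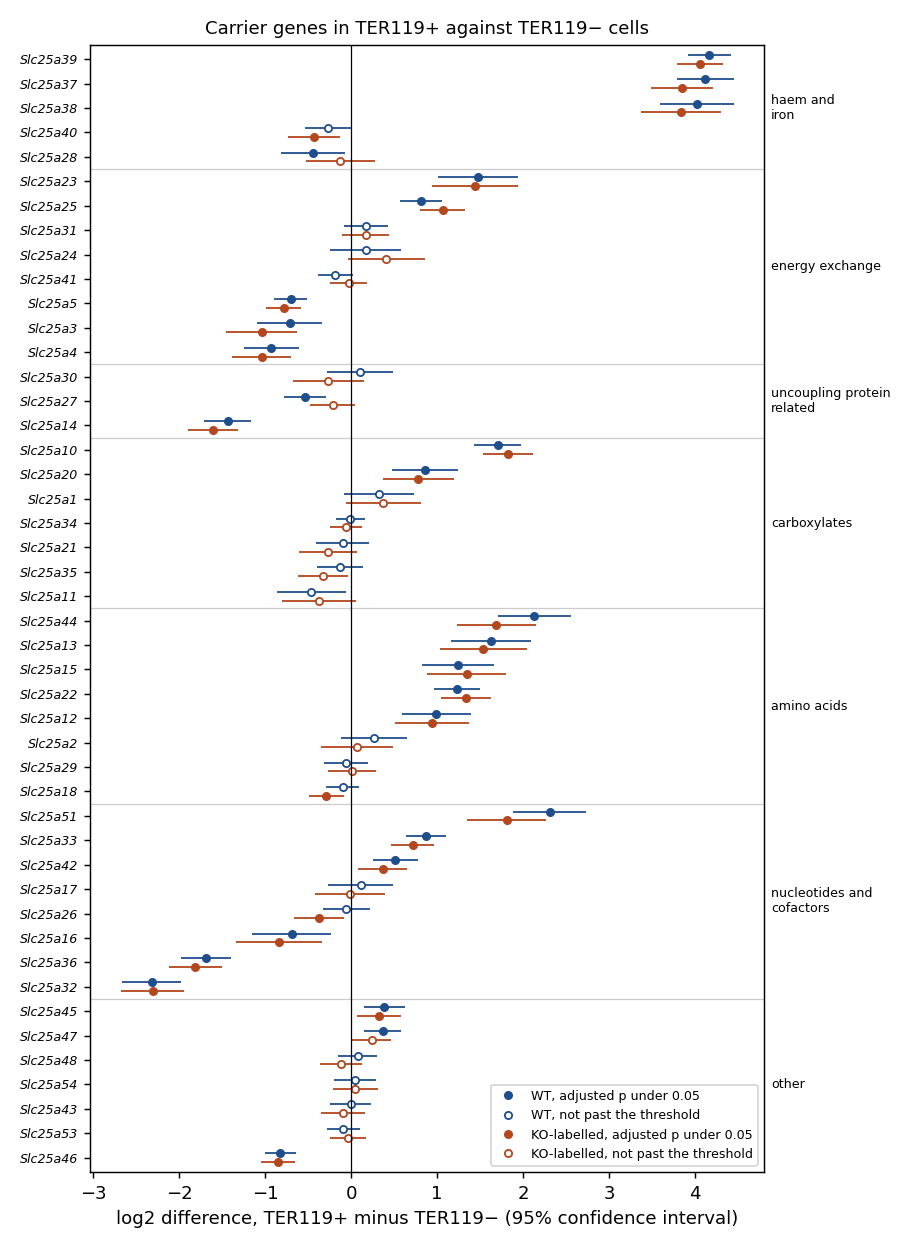
Difference between TER119+ and TER119- cells (log2, with 95% confidence interval) for each of the 46 carriers, in WT and KO-labelled arrays, grouped by role. Open symbols did not pass an adjusted p of 0.05; Slc25a37, Slc25a38 and Slc25a39 lie near 4 in both genotypes and Slc25a32 near -2.3.

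In KO-labelled cells, 27 carriers were also called (background 49%), 16 higher (22.6%) and 11 lower (26.5%), and 32 did not overlap (56.1%). The 2 population comparisons take their means from different arrays. Their calls share 1 estimate of the spread over all 15 arrays, so they are not fully independent. Of the carriers, 16 were higher and 8 lower in both, 0 changed in opposite directions, and 16 passed in neither. The 24 shared calls made up 88.9% of each list, where the shared calls of all genes made up 82.5% of the WT and 88.5% of the KO-labelled list. Slc25a27, Slc25a28 and Slc25a47 passed only in WT and Slc25a18, Slc25a26 and Slc25a40 only in KO-labelled cells; none of these 6 passed the test of a difference between the genotypes. The Slc25a26 call was lost without any 1 of the 3 KO TER119+ arrays or without KO TER119- replicate 2, 3 or 4.

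Of the 5 haem and iron carriers, 3 rose in WT TER119+ cells and 1 fell. Slc25a37, mitoferrin 1, read 12.00, 11.82, 12.06 and 11.95 in the 4 WT TER119+ arrays and 8.32, 7.59, 7.96 and 7.49 in the 4 WT TER119- arrays. Its KO-labelled arrays read 12.00, 11.93 and 11.86 in TER119+ and 7.82, 8.10, 8.37 and 8.02 in TER119- cells. Every TER119+ array lay above every TER119- array. The difference was 4.12 (SE 0.16, adjusted p = 2.29e-12 by limma), or 17.4-fold, in WT and 3.85 (SE 0.17, adjusted p = 1.70e-11) in KO-labelled cells.

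Slc25a38, the glycine carrier, read 10.61, 10.42, 10.47 and 10.21 in WT TER119+ and 7.00, 6.21, 6.68 and 5.73 in WT TER119- arrays. The KO-labelled arrays read 10.91, 10.82 and 10.84 in TER119+ and 6.99, 7.09, 7.26 and 6.74 in TER119- cells. The populations did not overlap in either genotype, and WT TER119- was the most spread of the 4 groups (SD 0.56). TER119+ cells were higher by 4.02 (SE 0.20, adjusted p = 6.41e-11, limma) in WT and by 3.84 (SE 0.22, adjusted p = 3.27e-10) in KO-labelled arrays.

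Slc25a39, a glutathione carrier, read 10.50, 10.40, 10.54 and 10.39 in WT TER119+ and 6.48, 6.05, 6.46 and 6.16 in WT TER119- arrays. The KO-labelled arrays read 10.65, 10.46 and 10.41 in TER119+ and 6.40, 6.45, 6.71 and 6.23 in TER119- cells. This was the largest difference of the 46 carriers, 4.17 (SE 0.12, adjusted p = 1.02e-13, limma), or 17.99-fold, in WT and 4.06 (SE 0.13, adjusted p = 4.57e-13) in KO-labelled cells. Its paralogue Slc25a40, also a glutathione carrier, did not follow it: it read 6.55 to 6.81 in WT TER119+ and 6.58 to 7.36 in WT TER119- arrays, a difference of -0.26 that did not pass the test (adjusted p = 0.104, limma). In KO-labelled cells Slc25a40 fell by 0.43 (SE 0.14, adjusted p = 0.0181, limma). A second Slc25a40 probe set gave -0.04, but it was dim, at 5.31 in WT TER119+ and 5.30 in WT TER119- cells. Of the 20 probe sets nearest to it in identifier order, 0 map to the Slc25a40 chromosome, against 20 for the one used.

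Slc25a28, mitoferrin 2, the iron importer of other cells, read 6.95, 6.91, 6.72 and 6.89 in WT TER119+ and 7.88, 7.09, 7.44 and 6.83 in WT TER119- arrays. The KO-labelled arrays read 7.36, 7.25 and 7.24 in TER119+ and 7.38, 7.40, 7.71 and 7.15 in TER119- cells. The populations overlapped in both genotypes. The WT difference was -0.44 (SE 0.17, adjusted p = 0.0427, limma), which became -0.25 (adjusted p = 0.159) without WT TER119- replicate 1, the highest array. The call was also lost without any 1 of the 7 TER119+ arrays, without WT TER119- replicate 3, or without KO TER119- replicate 1 or 2. In KO-labelled cells it was -0.12 (SE 0.19, adjusted p = 0.631). Mitoferrin 1 was thus higher in TER119+ cells in every array, and mitoferrin 2 was not.

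**Figure D2:**
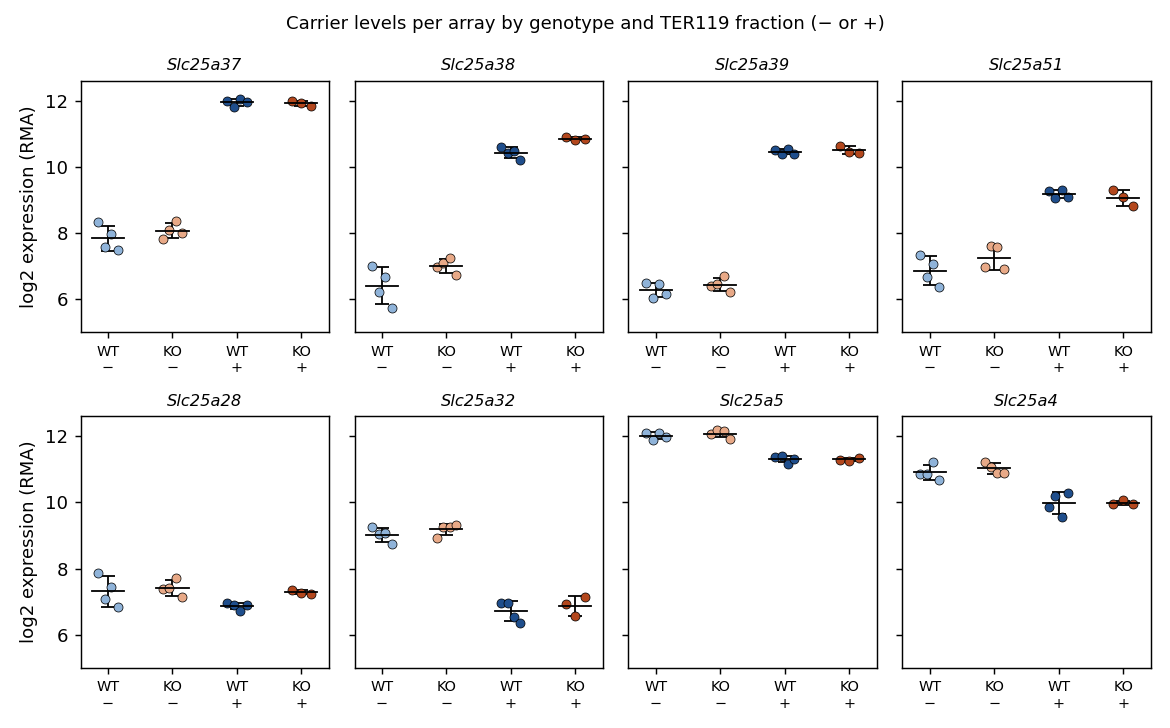
Level (log2) of 8 carriers in each array of the 4 groups, with group mean and SD (bars). Slc25a37, Slc25a38 and Slc25a39 lie above 10.2 in every TER119+ array and below 8.4 in every TER119- array, and Slc25a51 follows with a smaller gap; Slc25a32, Slc25a5 and Slc25a4 lie lower in TER119+ arrays, and the Slc25a28 groups overlap.

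Of the 8 carriers of ATP, ADP and phosphate, 2 rose, 3 fell and 3 did not pass in WT. The 3 that fell are the core carriers of oxidative phosphorylation. Slc25a4, the ADP/ATP carrier ANT1, read 9.87, 10.20, 9.56 and 10.27 in WT TER119+ and 10.85, 10.86, 11.23 and 10.69 in WT TER119- arrays. Every TER119+ array was below every TER119- array, with a difference of -0.93 (SE 0.15, adjusted p = 5.77e-05, limma) in WT and -1.04 (SE 0.16, adjusted p = 4.10e-05) in KO-labelled cells.

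Slc25a3, the phosphate carrier, read 9.64, 9.62, 9.65 and 9.62 in WT TER119+ and 10.75, 10.10, 10.62 and 9.92 in WT TER119- arrays. The TER119+ arrays lay close together and the TER119- arrays spread more widely (SD 0.02 and 0.40), with no overlap. The difference was -0.71 (SE 0.18, adjusted p = 0.00301, limma) in WT and -1.04 (SE 0.19, adjusted p = 0.000247) in KO-labelled cells. Slc25a5, the ADP/ATP carrier ANT2, read 11.36, 11.41, 11.17 and 11.30 in WT TER119+ and 12.11, 11.89, 12.09 and 11.97 in WT TER119- arrays. It fell by 0.70 (SE 0.09, adjusted p = 4.16e-06, limma) in WT and by 0.78 (SE 0.10, adjusted p = 3.00e-06) in KO-labelled cells. RefSeq also lists a pseudogene, Slc25a5-ps, so which copy this probe set measures is uncertain. None of the 20 probe sets nearest in identifier order to the one used map to the Slc25a5 chromosome; another Slc25a5 probe set, with 19 of 20 neighbours there, gave -0.72 (SE 0.09) in WT.

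The remaining carriers of this role were mixed. Slc25a31, the testis ADP/ATP carrier ANT4, was dim, between 4.14 and 4.79 in all arrays, and its difference of 0.17 in WT did not pass (adjusted p = 0.252, limma). Of the calcium-regulated ATP-magnesium/phosphate carriers, Slc25a23 rose by 1.48 (SE 0.22, adjusted p = 2.26e-05) and Slc25a25 by 0.82 (SE 0.11, adjusted p = 1.16e-05) in WT, whereas Slc25a24 differed by 0.17 and did not pass (adjusted p = 0.494, limma). Slc25a41, dim at 3.98 to 4.48, did not pass.

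Slc25a14 (UCP5), one of 3 uncoupling protein relatives, read 5.45, 5.20, 5.32 and 5.18 in WT TER119+ and 6.83, 6.69, 6.92 and 6.45 in WT TER119- arrays. It fell by 1.43 (SE 0.13, adjusted p = 6.07e-08, limma) in WT and by 1.61 (SE 0.14, adjusted p = 4.26e-08) in KO-labelled cells, with no overlap. Slc25a27 (UCP4) fell by 0.53 (SE 0.11, adjusted p = 0.000852) in WT, and the difference of -0.21 in KO-labelled cells did not pass (adjusted p = 0.178, limma). Slc25a30 passed in neither.

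Among 7 carriers of carboxylates and acylcarnitines, 2 rose and 5 did not pass in WT. Slc25a10, the dicarboxylate carrier, read 7.79, 7.87, 7.64 and 8.07 in WT TER119+ and 6.36, 6.37, 5.85 and 5.97 in WT TER119- arrays. It was higher by 1.71 (SE 0.13, adjusted p = 7.86e-09, limma), or 3.26-fold, in WT and by 1.82 (SE 0.14, adjusted p = 9.93e-09) in KO-labelled cells. Slc25a20, the carnitine-acylcarnitine carrier of fatty acid oxidation, rose by 0.86 (SE 0.18) and 0.78 (SE 0.20). Slc25a1, the citrate carrier, and Slc25a11, the oxoglutarate carrier, were bright in all arrays (7.63 to 8.76 and 7.98 to 9.11) and passed in neither genotype.

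Amino acid carriers were the role with the most rises: 5 of 8 in WT, and none fell. Slc25a44, the branched-chain amino acid carrier, read 8.57, 8.51, 8.23 and 8.35 in WT TER119+ and 6.54, 5.85, 6.80 and 5.93 in WT TER119- arrays. It was higher by 2.13 (SE 0.20, adjusted p = 1.15e-07, limma), or 4.39-fold, in WT and by 1.69 (SE 0.22, adjusted p = 4.70e-06) in KO-labelled cells, with no overlap. Citrin (Slc25a13), an aspartate-glutamate carrier of the malate-aspartate shuttle, read 8.88, 9.49, 8.72 and 9.46 in WT TER119+ and 7.87, 7.25, 7.87 and 7.03 in WT TER119- arrays, a difference of 1.63 (SE 0.22, adjusted p = 8.29e-06, limma). Its paralogue aralar (Slc25a12) rose by 0.99 (SE 0.19), the ornithine carrier Slc25a15 by 1.24 (SE 0.20) and the glutamate carrier Slc25a22 by 1.23 (SE 0.13). The dim Slc25a2, Slc25a18 and Slc25a29 did not pass in WT.

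The 8 carriers of nucleotides and cofactors split 3 up, 3 down and 2 not passing in WT. Slc25a51, the NAD carrier, read 9.27, 9.05, 9.30 and 9.10 in WT TER119+ and 7.34, 6.68, 7.08 and 6.38 in WT TER119- arrays. It was higher by 2.31 (SE 0.20, adjusted p = 4.70e-08, limma), or 4.96-fold, in WT and by 1.81 (SE 0.22, adjusted p = 2.23e-06) in KO-labelled cells. Slc25a33, a pyrimidine nucleotide carrier, and Slc25a42, the coenzyme A carrier, rose by 0.87 (SE 0.11) and 0.52 (SE 0.12).

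Slc25a32, the folate and FAD carrier, was the carrier that fell most. It read 6.97, 6.96, 6.54 and 6.36 in WT TER119+ and 9.25, 9.04, 9.07 and 8.74 in WT TER119- arrays. It fell by 2.32 (SE 0.16, adjusted p = 3.13e-09, limma), or 4.99-fold, in WT and by 2.31 (SE 0.17, adjusted p = 9.45e-09) in KO-labelled cells. Slc25a16, of coenzyme A metabolism, read 6.31, 6.28, 6.27 and 6.15 against 7.41, 6.48, 7.28 and 6.61 and fell by 0.69 (SE 0.22, adjusted p = 0.0133, limma), or to an adjusted p of 0.0533 with sex as a factor. Slc25a36, another pyrimidine nucleotide carrier, read 7.32, 7.59, 7.43 and 7.58 against 9.40, 8.82, 9.36 and 9.09 and fell by 1.69 (SE 0.14, adjusted p = 1.75e-08, limma). That probe set has 0 of 20 nearest probe sets on the gene's chromosome; the other Slc25a36 probe set, with 19 of 20, gave -0.30 (SE 0.13, adjusted p = 0.0593) in WT and -0.54 (SE 0.14, adjusted p = 0.00318) in KO-labelled cells.

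Among the 7 other members, Slc25a46, an outer membrane protein that shapes mitochondria, read 7.70, 7.82, 7.78 and 7.79 in WT TER119+ and 8.70, 8.63, 8.59 and 8.45 in WT TER119- arrays. It fell by 0.82 (SE 0.09, adjusted p = 4.10e-07, limma) in WT and by 0.85 (SE 0.09, adjusted p = 7.78e-07) in KO-labelled cells. The orphans Slc25a45 and Slc25a47 rose by 0.38 (SE 0.11) and 0.37 (SE 0.10) in WT, and the other 4 did not pass.

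The hepatocyte marker level varied among TER119+ arrays, and a few carriers are shown beside it. The marker mean was 10.97, 11.75, 11.12 and 11.65 in WT TER119+ replicates 1 to 4 and 11.65, 11.63 and 11.15 in the KO-labelled ones. In the same order, Slc25a15 read 7.08, 7.84, 6.93 and 7.64, then 7.74, 7.76 and 7.29. Slc25a23 read 6.04, 6.90, 6.003 and 6.63, then 6.58, 6.68 and 6.13. The 3 arrays with the lowest marker mean were the 3 lowest for both genes, and also for Slc25a13 (8.88, 8.72 and 8.96). This order and the slopes below rest on the same arrays, so they are not separate results. Slc25a4, Slc25a11, Slc25a20, Slc25a30 and Slc25a48 were also lowest in those 3 arrays. The share of all genes with this order was not counted. Mitoferrin 1 did not order this way: it read 12.00, 12.06 and 11.86 in those 3 arrays and 11.82 to 12.00 in the other 4. A slope on the marker mean within each population, added in limma after the data were seen, passed for 2 of 46 carriers in TER119+ cells, both rising, a share near the 3.48% of all genes that rose: Slc25a15 (1.05 per marker unit, SE 0.25, adjusted p = 0.0279) and Slc25a23 (1.09, SE 0.28, adjusted p = 0.0403). Slc25a37, Slc25a38 and Slc25a39 had slopes of -0.10 (SE 0.21), -0.23 (SE 0.24) and -0.05 (SE 0.20).

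In TER119- cells Slc25a15 and Slc25a23 did not pass on the hepatocyte mean, with slopes of -0.09 (adjusted p = 0.567, limma) and -0.14 (adjusted p = 0.412). There 7 carriers fell with the hepatocyte mean (background 6.76% of genes falling), namely Slc25a3, Slc25a13, Slc25a21, Slc25a28, Slc25a37, Slc25a38 and Slc25a51. On the erythroid mean, 6 of these rose, all but Slc25a13 (background 4.14% of genes rising), with Slc25a37 at 0.97 per marker unit (SE 0.17, adjusted p = 0.0129, limma) and Slc25a38 at 1.12 (SE 0.26, adjusted p = 0.0293). The 2 marker means largely ran opposite ways in these arrays, so the falls and rises are not separate results. The arrays with hepatocyte means of 5.61, 5.76 and 5.89 had erythroid means of 8.73, 8.29 and 8.36. The array with the highest hepatocyte mean, 8.03, had the lowest erythroid mean, 7.58. KO TER119- replicate 4 was less opposed, at 7.06 and 8.30. In TER119+ cells, whose erythroid mean spans only 11.63 to 11.77, limma called 0 carriers and 0 of all genes on it.

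**Figure D3:**
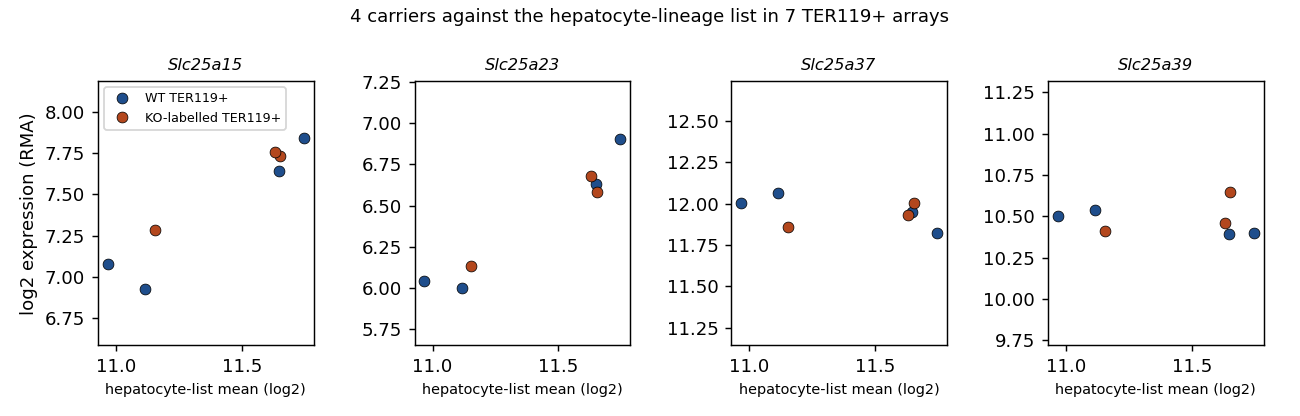
Level (log2) of Slc25a15, Slc25a23, Slc25a37 and Slc25a39 against the mean of 19 hepatocyte markers (log2) in the 7 TER119+ arrays. Slc25a15 and Slc25a23 are lowest in the 3 arrays with the lowest marker mean, and Slc25a37 and Slc25a39 are not.

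Other mitochondrial genes were read in the same comparison. Of 12 measured haem and iron-sulphur partners, 8 rose and 2 fell in both genotypes (83.3% called, against 52.6% of all genes in WT and 49% in KO-labelled cells). Alas2, the erythroid aminolevulinate synthase, rose by 5.77 (SE 0.16) and Ppox, an enzyme of the last steps of haem synthesis, by 4.12 (SE 0.22) in WT. Fech, ferrochelatase, rose by 2.98 (SE 0.21) and Isca1, an iron-sulphur assembly protein, by 4.08 (SE 0.16). Alas1, the enzyme of other tissues, fell by 1.07 (SE 0.20) and Fdx1, a ferredoxin, by 1.14 (SE 0.19). Of 19 other measured mitochondrial membrane transport genes, 8 rose and 4 fell in WT and 6 rose and 4 fell in KO-labelled cells, shares of 63.2% and 52.6% that are near those of all genes. Abcb10, an inner membrane transporter of red cell precursors that binds mitoferrin 1, rose by 4.33 (SE 0.15) in WT. This was close to the size seen for Slc25a37, Slc25a38 and Slc25a39. Sfxn1, a serine transporter, fell by 0.88 (SE 0.11) in WT. Of the 4 other genes of the carrier fold, Mtch2 rose by 0.75 (SE 0.10) and the other 3 did not pass in WT.

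The comparison between the genotypes called none of the 46 carriers. In TER119+ cells the background was 1.02% of all genes, in TER119- cells 0.0853% and in the interaction 0.436%. At an unadjusted p under 0.05, limma gave 2, 4 and 0 carriers, where 5.33%, 7.56% and 4.27% of all genes were below it. The arrays did not overlap for 7 carriers in TER119+ cells (background 10.1%) and for 0 in TER119- cells (background 2.63%). The median KO-labelled minus WT difference was 0.01 in TER119+ and 0.12 in TER119- cells, against -0.01 and -0.02 over all genes. The TER119- median moved with the arrays kept. It was 0.05 without WT TER119- replicate 4, 0.06 without WT replicate 2 and 0.08 without KO replicate 3. It was 0.16 without WT replicate 1, 0.15 without WT replicate 3, 0.16 without KO replicate 4 and 0.10 without KO replicate 1 or 2. Without the 3 arrays that stand apart it was 0.01, and with the hepatocyte marker mean as a covariate 0.02. Over all genes at or above the median mean level, the TER119- difference had a median of 0.09. Centring each array on the median of these brighter genes took the carriers to -0.02 and all genes to -0.15.

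In TER119+ cells the 95% interval of all 46 carriers stayed within 1 log2 unit either way. The largest difference was 0.49 for Slc25a24 (SE 0.21, interval 0.05 to 0.94). It read 7.22, 7.32, 7.41 and 7.43 in WT and 7.96, 7.77 and 7.79 in KO-labelled arrays, which did not overlap. With limma on all arrays the adjusted p was 0.794, and on these 7 arrays alone it was 0.0261. Slc25a28 followed at 0.42 (SE 0.19, interval 0.02 to 0.82), with adjusted p = 0.874 on all arrays and 0.0462 on the 7, and its groups did not overlap either. The glycine carrier Slc25a38 was at 0.43 (SE 0.22, interval -0.04 to 0.89), and mitoferrin 1 at -0.03 (SE 0.17, interval -0.39 to 0.33).

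In TER119- cells the smallest p belonged to Slc25a38, higher by 0.61 in KO-labelled arrays (SE 0.20, interval 0.18 to 1.04, adjusted p = 0.622, limma). The WT and KO-labelled arrays overlapped, as they did for every carrier. Without WT TER119- replicate 4, the lowest array, the difference was 0.39. The same arrays differed in other markers: the erythroid mean was 7.58 to 8.29 in WT and 7.99 to 8.73 in KO-labelled arrays, and the hepatocyte mean was 5.76 to 8.03 and 5.61 to 7.06. By sex-linked genes, the 4 WT TER119- arrays were all male and the KO-labelled ones were 1 male and 3 female, so sex and genotype are partly mixed here; with sex as a factor the Slc25a38 difference was 0.66 (adjusted p = 0.778). Without the 3 arrays that stand apart it was 0.27 (adjusted p = 0.9999), and with the hepatocyte marker mean as a covariate 0.28 (adjusted p = 0.944). Slc25a21, the oxodicarboxylate carrier, differed by 0.42 (SE 0.15) and Slc25a27 by -0.27 (SE 0.11).

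**Figure D4:**
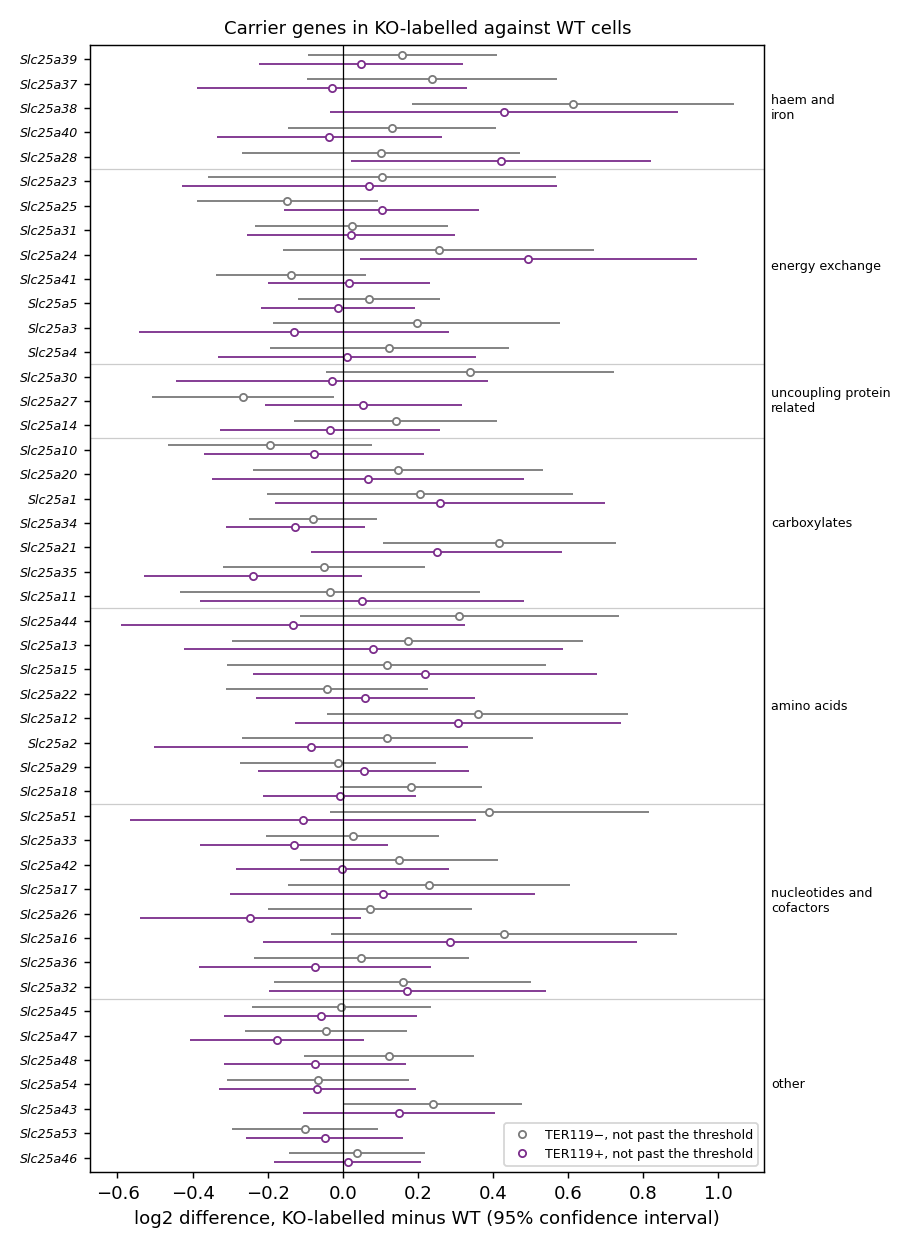
Difference between KO-labelled and WT arrays (log2, with 95% confidence interval) for each of the 46 carriers, in TER119+ and TER119- cells. None passes an adjusted p of 0.05, and the largest values are 0.61 for Slc25a38 in TER119- and 0.49 for Slc25a24 in TER119+ cells.

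The test of whether the genotype difference itself differed between populations called 0 carriers, and the smallest unadjusted p was 0.0750, for Slc25a27 (0.32, interval -0.04 to 0.68). Slc25a26, the S-adenosylmethionine carrier, was at -0.32 (interval -0.72 to 0.08) and Slc25a51 at -0.50 (interval -1.12 to 0.13). Among the partner genes, 1 was called between genotypes: Tspo, an outer membrane protein that binds porphyrins, was higher by 0.86 in KO-labelled TER119+ cells (SE 0.15, adjusted p = 0.00688, limma).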

How the data were processed

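Per the labels, total RNA of 15 sorted samples was labelled and hybridised to Affymetrix arrays. The authors deposited log2 expression values per probe set, made with RMA and Partek per the submitters' processing notes. The sources used here give no version of either. RMA compresses differences between dim signals. Of 35399 probe sets, 23410 were listed in the platform table: 21789 with 1 symbol and 1621 with more than 1, while 11989 were unnamed. The probe set with the highest mean stood for each of 999 genes with several, which gave 19938 genes. All 15 arrays were fitted with limma 3.58.1 in R 4.3.3, with 1 mean per group and no filter on dim genes. Adjusted p-values are 2-sided Benjamini-Hochberg over all genes, with a threshold of 0.05. Intervals are 95% intervals of the model. The number of arrays limits the precision. The fit was tested on simulated data with separate random noise for each gene. These held no shifts shared by many genes of an array, so the test cannot show how the fit handles such shifts.

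The gene family and the gene lists were chosen with earlier results of these data known. Named carriers were those of haem, iron, adenine nucleotides and phosphate, the 8 with the largest WT population difference in each direction, and the 3 of smallest p in each genotype contrast and the interaction. Deviations of same-numbered arrays from their group means correlated at -0.38 to 0.65, varying by pair and not above 0.1 in every pair, so the numbers were not used to pair samples. The slopes on marker means and the check of probe set positions were added after the data were seen.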

Additional observations from a re-analysis of the deposited data

Results flagged for a closer look

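In 7 of 138 groups of 4 arrays, 1 array stood far from the other 3 of its group; about 1 in 20 such groups does so by chance, or 6.9 here. All 7 lie in TER119- arrays, where these carriers were dim, and no explanation was tested. Slc25a23 read 4.50 in KO TER119- replicate 4, against 5.16 to 5.24 in the others. Slc25a25 read 4.74 in WT TER119- replicate 4, against 5.13 to 5.19. Slc25a27 read 4.68 in the same array, against 5.10 to 5.18, and Slc25a48 read 4.30 there, against 4.57 to 4.62. Slc25a29 read 4.24 in KO TER119- replicate 2, against 4.67 to 4.76. Slc25a35 read 4.29 in KO TER119- replicate 4, against 4.54 to 4.55. Slc25a53 read 4.08 in WT TER119- replicate 1, against 3.79 to 3.83.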

How the results depend on the processing

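No called value changed direction under any alternative run. The count of carriers called between populations was 27 in both genotypes in the main analysis (52.6% of all genes in WT and 49% in KO-labelled cells). With the replicate number as a block it was 27 in WT and 25 in KO-labelled cells (53% and 48.2% of all genes), and 0 in the other comparisons. Leaving out each array in turn gave 26 to 29 in WT and 22 to 28 in KO-labelled cells, and 0 in both genotype comparisons and the interaction. The share of all genes called then ran from 48.4% to 54.8% in WT and from 43.7% to 51.5% in KO-labelled cells. Centring each array on the median of its brighter genes gave 15 up and 12 down in WT and 14 up and 11 down in KO-labelled cells, against 17 and 10, and 16 and 11. With this centring 46.9% and 43.3% of all genes were called. Fitting only the arrays compared gave 2 carriers between genotypes in TER119+ cells (1.76% of all genes), against 0 (1.02%). Array weights gave 29 in WT and 34 in KO-labelled cells, where 52.2% and 59.8% of all genes were called. Slc25a28 lost its WT call in 13 alternatives, with adjusted p up to 0.159.
Slc25a36 lost its WT call with its other probe set and Slc25a16 with sex as a factor. In KO-labelled cells Slc25a26 lost its call in 6 alternatives, and Slc25a21, Slc25a24 and Slc25a27 gained 1 under 2 or 3 alternatives each. Causes were not tested.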
